A study of Mus musculus with 8 samples.

Results

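Müller glia genes were examined in photoreceptor cells isolated from the mouse retina at postnatal day 8. The set held 10 genes chosen as established markers of Müller glia: Glul, Slc1a3, Sox9, Aqp4, Apoe, Vim, Clu, Dkk3, Hes1 and Kcnj10. Through the RefSeq accession on the array, 16 of the 56605 probes named these genes, which were 10 of 22911 genes that could be named. Of the 10 genes, 9 had a probe that was tested, and Hes1 had none. The study compared 4 arrays labelled Lpcat1 HZ, heterozygous for the deletion and used as the control, with 4 arrays labelled Lpcat1 KO, all labelled C57BL/6. Lpcat1 encodes an enzyme that puts saturated fatty acids into phosphatidylcholine. Per the study's methods, the deletion was present in the whole animal, the line was made on a C57BL6/N background and crossed with C57BL6/J, and mice homozygous for the rd8 mutation were not used. The control therefore carried a deleted allele too. Cells were dissociated with trypsin, and those positive for CD73, a surface protein of photoreceptor precursors, were kept on magnetic beads. How many animals went into a sample is not given in the sources used here, so p-values measure only the spread between these samples.

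Müller glia are the radial glia of the retina and span its whole thickness. They take up glutamate released by photoreceptors and neurons, convert it to glutamine, carry potassium and water to the vitreous and the vessels, and supply lipids and secreted proteins. They are the last cell type that retinal progenitors form, and in the mouse the first postnatal week is when progenitor cells turn into Müller glia and bipolar cells, so that several Müller glia genes are also on in progenitors. Notch signaling and the transcription factor Sox9 act in that step. The cells were enriched for photoreceptors, and in bulk RNA the signal of photoreceptors and that of other cells left after the enrichment cannot be told apart. Likewise, fewer cells of a type and less RNA per cell cannot be told apart.

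A single slide carried all 8 arrays, KO in row 1 and HZ in row 2, so that genotype and slide row cannot be told apart. The replicate number of an array was also its slide column. A value below is the log2 signal intensity of a probe minus the array's 75th percentile, called the normalized log2 signal, and each difference is KO minus HZ. The 75th percentile lay between 882 and 1024 intensity units, from 59.5% to 63.8% of probes were well above background, and 0 probes were saturated. HZ replicate 4 had 657 spots marked as outliers, against 86 to 194 on the other arrays. Pearson's r between arrays, across tested probes, was 0.974 to 0.992. All 15 rod markers were well above background on all 8 arrays. Lpcat1 itself differed by -0.037 (standard error (SE) 0.11, limma adjusted p = 0.930), so its probe did not separate the labels. Whether that probe lies within the deleted part is not given in the sources used here. The groups are therefore called by their labels throughout. Nt5e, the gene of CD73, differed by -0.11 (SE 0.086, limma adjusted p = 0.739).

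The 9 tested Müller glia genes showed 2 features. First, 0 of them passed a fold of 1.2 with a limma adjusted p of 0.05 between arrays labelled KO and HZ, where 0% of all 34281 probes passed by limma, and Clu alone reached an unadjusted p under 0.05, at 0.56 lower in KO on the log2 scale, a share of 1 in 9 against 8.17% of all probes. Second, 7 of the 9, all except Clu and Aqp4, had their highest signal on replicate number 2 in HZ and again in KO, against 15.5% of all tested probes. The excess of number 2 over the other arrays was as large as 1.65 in HZ and 1.23 in KO, for Dkk3. The genotype difference and the variation by replicate number are given for each gene, ordered by what its product does.

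Promoters of 5 of the 10 genes were taken from the RefSeq promoter table of GRCm38.p6. All 5 genes were among those highest on number 2 in both groups. Aqp4, which was not among those, was left out of this selection, so nothing is read from the overlap. The promoters of Vim, Slc1a3, Kcnj10 and Glul are shown, and Apoe, with 3 start sites in the table, is left out. The 250 bases before their start sites are printed to show what these genes carry in front of the start. Capitals mark matches, on either strand, to TGGGAA (the core that the Notch effector RBPJ binds), AACAAT (a core of SOX factors), CACNAG (the N box of HES proteins) or TATAAA (the TATA box).
Vim, chr2:13574061-13574310, plus strand: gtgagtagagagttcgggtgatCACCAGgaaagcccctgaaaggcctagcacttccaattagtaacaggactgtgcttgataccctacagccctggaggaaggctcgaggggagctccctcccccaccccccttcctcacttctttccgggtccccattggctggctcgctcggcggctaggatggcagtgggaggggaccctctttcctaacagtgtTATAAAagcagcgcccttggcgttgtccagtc
Slc1a3, chr15:8710808-8711057, minus strand: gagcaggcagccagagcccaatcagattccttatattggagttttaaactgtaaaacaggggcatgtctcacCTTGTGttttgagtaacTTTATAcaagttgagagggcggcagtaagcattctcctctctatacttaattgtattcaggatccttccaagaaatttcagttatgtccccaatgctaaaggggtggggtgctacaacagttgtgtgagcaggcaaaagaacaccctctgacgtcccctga
Kcnj10, chr1:172340960-172341209, plus strand: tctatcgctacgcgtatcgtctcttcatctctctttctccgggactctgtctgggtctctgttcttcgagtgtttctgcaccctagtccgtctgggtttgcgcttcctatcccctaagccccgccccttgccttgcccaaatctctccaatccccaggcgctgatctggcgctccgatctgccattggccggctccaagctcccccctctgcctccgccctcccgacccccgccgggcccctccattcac
Glul, chr1:153899679-153899928, plus strand: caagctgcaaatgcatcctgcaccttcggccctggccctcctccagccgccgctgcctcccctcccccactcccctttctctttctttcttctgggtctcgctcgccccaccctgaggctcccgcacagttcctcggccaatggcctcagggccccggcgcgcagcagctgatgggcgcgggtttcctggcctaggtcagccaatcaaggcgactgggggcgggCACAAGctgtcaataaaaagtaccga
Vim and Slc1a3 each held 1 match to CACNAG and 1 to TATAAA, Glul held 1 match to CACNAG, and Kcnj10 held 0 matches to any of the 4. TGGGAA and AACAAT had 0 matches in these windows. Of 32841 promoters in the table, 36.7% held CACNAG, 12.4% TATAAA, 21.6% TGGGAA and 9.43% AACAAT in a window of that length. None of the 4 motifs contains another. A match describes letters only, and windows with 0 matches say nothing of the factor.

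Glul encodes glutamine synthetase, which turns glutamate and ammonia into glutamine and is the classic marker of mature Müller glia. Its normalized log2 signal was 1.36, 1.72, 1.46 and 1.03 on HZ replicates 1 to 4 and 1.43, 1.67, 1.49 and 1.27 on KO replicates 1 to 4. The groups overlapped, with replicate 2 highest and replicate 4 lowest in each. The difference was 0.071 (SE 0.16, 95% confidence interval -0.29 to 0.43, limma adjusted p = 0.904). The other probes of Glul differed by 0.28 (SE 0.21) and 0.013 (SE 0.13). The difference of the first probe turned to -0.050 without HZ replicate 4, so its direction is not settled. Slc1a3 encodes GLAST, the glutamate transporter of Müller glia. Its signal was -1.11, 0.25, -0.66 and -0.86 in HZ and -0.83, -0.34, -0.60 and -0.72 in KO. HZ replicate 2 stood above all other arrays. The difference was -0.026 (SE 0.28, limma adjusted p = 0.983), and it turned positive, at 0.26, without that array.

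In the wider set of genes for uptake and recycling of glutamate, glutamine, GABA and glycine, 12 of 15 tested genes were higher and 3 lower in KO, with a median difference of 0.081 against 0.0023 over all tested probes. Counted by gene, the median over all tested genes was 0.029, and 43.2% of them were lower in KO. None of the 15 reached an unadjusted p of 0.05, where 8.17% of all probes did. The amino acid transporters Slc38a5, Slc38a3 and Slc38a1 differed by 0.61, 0.20 and 0.18, Got2, the mitochondrial aspartate aminotransferase, by 0.19 and Glud1, glutamate dehydrogenase, by 0.17. The groups did not overlap for Slc38a3 and for Slc1a2, the transporter GLT-1, which differed by 0.13 and was named after its value was seen. A background of 4.2% of all probes had KO above HZ without overlap.

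Kcnj10 encodes Kir4.1, the potassium channel through which Müller glia siphon potassium. Its signal was -2.58, -1.25, -2.03 and -2.47 in HZ and -2.57, -2.07, -2.38 and -2.60 in KO. Replicate 2 was again highest in each group, and the other arrays lay between -2.60 and -2.03. The difference was -0.32 (SE 0.29, limma adjusted p = 0.768). Aqp4, the water channel of glial endfeet, did not have its highest signal on number 2 in both groups, as Clu did not. Its signal was -4.69, -4.99, -4.31 and -3.65 in HZ and -4.75, -4.07, -5.18 and -4.16 in KO, which overlapped widely. The difference was -0.13 (SE 0.34, limma adjusted p = 0.920). A further Aqp4 probe exceeded background clearly on 2 HZ arrays and on 0 KO arrays, and was not tested. Its measured means were -5.33 in HZ and -6.11 in KO, but the HZ arrays that did not exceed background lay below KO replicate 1, so the groups overlapped.

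Aqp4 and Kcnj10 are anchored at the endfoot by the dystrophin glycoprotein complex. Of the 10 tested genes of that group, 4 were higher and 6 lower in KO, with a median of -0.11. An unadjusted p of 0.05 was reached by 0 of them, where 8.17% of all probes did. The anchoring proteins dystrobrevin alpha (Dtna), utrophin (Utrn) and syntrophin beta 2 (Sntb2) differed by 0.23, 0.22 and -0.20. Sntb1 and Kcnj2 had no tested probe.

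Sox9 encodes a transcription factor of progenitors and Müller glia that the glial fate requires. Its signal was -3.67, -1.84, -2.60 and -2.97 in HZ and -3.46, -2.60, -3.23 and -3.69 in KO. Replicate 2 was highest in each group, and KO was below HZ in all numbers except number 1. The difference was -0.48 (SE 0.39, 95% confidence interval -1.37 to 0.42, limma adjusted p = 0.752), and another Sox9 probe differed by -0.16 (SE 0.21). Hes1, the Notch target that keeps progenitors undifferentiated, was well above background on 0 of 8 arrays, so no difference is given. This describes its probe on these arrays, not the absence of its RNA.

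In the Notch pathway, 24 of 25 genes were tested, Hes1 being the exception. Of these, 7 were higher and 17 lower in KO, and the median was -0.12. An unadjusted p of 0.05 was reached by 0, where 8.17% of all probes did. Of the 24, 4 were not well above background on every array, and the median was -0.049 with the probes that were. Neurog2, a proneural factor that Notch represses, differed by -1.11, and the glycosyltransferase of Notch receptors Lfng by -0.62. Each was well above background on only 4 arrays, so the size of these differences is uncertain. The ligands Dll4 and Dll3 differed by -0.53 and -0.49 and the target Hey2 by -0.42. Dll3 was -1.75, 0.36, -0.61 and -1.81 in HZ and -1.64, -0.51, -1.20 and -2.43 in KO. As for the Müller glia genes, replicate 2 was highest in both groups. The pattern was found for 16 of the 24 genes, against 15.5% of all probes.

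Vim encodes vimentin, the intermediate filament of Müller glia and progenitors. Its signal was -1.13, 0.68, -0.31 and -1.02 in HZ and -0.86, 0.07, -0.79 and -1.26 in KO. Replicate 2 was the highest array of each group and was followed by replicate 3. The difference was -0.27 (SE 0.44, limma adjusted p = 0.869), and it turned to 0.11 without HZ replicate 2. Of 5 tested filament and linker genes, 3 were higher and 2 lower in KO. Their median of 0.22 was not stable. It was 0.0038 with the mean of a gene's probes and -0.055 without KO replicate 2. Gfap, the filament of astrocytes and of reactive Müller glia, was the gene of this group with the largest difference. It was -4.51, -4.13, -4.38 and -4.18 in HZ and -3.51, -3.57, -3.79 and -3.08 in KO. Every KO array was above every HZ array, as for 4.2% of all probes. The difference was 0.82 (SE 0.16, limma adjusted p = 0.333), which passed a fold of 1.5 with an adjusted p of 0.5, as did 0.228% of all probes in that direction, but not the stricter pair. Nes, the progenitor filament nestin, differed by 0.28, the linker Plec by 0.22 and Synm by -0.090.

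Apoe encodes the apolipoprotein E that Müller glia secrete, and microglia make it too. Its signal was 3.25, 3.77, 3.47 and 3.29 in HZ and 3.55, 4.08, 3.31 and 2.93 in KO. The highest array of each group was replicate 2, and KO held both the highest and the lowest array of all. The difference was 0.019 (SE 0.24, limma adjusted p = 0.986). Its direction is not settled: it turned to -0.040 with quantile normalization, to -0.013 when the percentile was taken over the probes that exceeded background on every array, and also without single arrays. Another probe of Apoe differed by 0.098 (SE 0.23).

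Clu encodes clusterin, a secreted chaperone and apolipoprotein that Müller glia and other retinal cells make. Its signal was 3.99, 3.40, 3.67 and 3.89 in HZ and 3.27, 3.38, 3.11 and 2.94 in KO. All KO arrays were below all HZ arrays, though KO replicate 2 came within 0.019 of HZ replicate 2. The difference was -0.56 (SE 0.15, 95% confidence interval -0.92 to -0.21), a fold of 1.47 lower in KO. The unadjusted p of the limma test was 0.0065 and the adjusted p 0.441. Clu was thus the 1 member of 9 at an unadjusted p under 0.05, against 8.17% of all probes in either direction, 3.49% lower and 4.69% higher in KO. It was also the 1 member whose groups did not overlap, against 6.33% of all probes, 2.14% with KO below HZ. Its fold was just under 1.5, and 0 members passed a fold of 1.5 with an adjusted p of 0.5, where 1.04% of all probes did, 0.811% lower in KO.

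Markers of the retinal pigment epithelium (RPE), the pigmented layer behind the photoreceptors, also stood lower on the KO arrays. All 14 tested RPE markers were lower in KO, with a median of -1.56. Of them, 9 passed a fold of 1.5 with an adjusted p of 0.5, against 0.811% of all probes in that direction. The stricter pair was passed by 0. The mean deviation of the RPE markers from their 8-array means was 1.34, 0.02, 0.77 and 0.68 in HZ and -0.20, -0.69, -0.43 and -1.51 in KO. Within replicate numbers 1 to 4, KO minus HZ was -1.54, -0.71, -1.20 and -2.19 for the RPE markers and -0.72, -0.019, -0.56 and -0.94 for Clu, the same order of size. On the scale of the 75th percentile, the summed level of the RPE markers was 16.1 to 43.3 in HZ and 8.06 to 15.1 in KO. Rpe65, the defining enzyme of that layer, was well above background on all 8 arrays, and Lrat was not tested. The part of RPE RNA in the difference of Clu was not tested.

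Among 15 tested genes for apolipoproteins, lipid export and lipoprotein receptors, Clu included, 7 were higher and 8 lower in KO, with a median of -0.048. At an unadjusted p under 0.05, 4 were lower and 0 higher, against 3.49% and 4.69% of all probes. Pltp, the phospholipid transfer protein, differed by -1.05 (SE 0.45), and its limma adjusted p was 0.610. The lipoprotein receptor Lrp1 differed by -0.36 (SE 0.12, limma adjusted p = 0.512), with every KO array below every HZ array. That held for 3 of the 15 genes, against 2.14% of all probes. Lpl, lipoprotein lipase, differed by 0.30.

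Dkk3 encodes a secreted protein of the Dickkopf family that Müller glia and progenitors make. Its signal was 0.47, 2.56, 1.46 and 0.80 in HZ and 0.74, 1.93, 1.04 and 0.30 in KO. These values spanned 2.27 on the log2 scale, and replicates 2 and 3 were above replicates 1 and 4 in each group. The difference was -0.32 (SE 0.50, limma adjusted p = 0.863), and another Dkk3 probe differed by -0.25 (SE 0.53). It turned to 0.092 without HZ replicate 2. Of 9 tested Wnt modulators and receptors, 2 were higher and 7 lower, with a median of -0.29 that moved to -0.017 without HZ replicate 2. At an unadjusted limma p under 0.05, 2 were lower and 0 higher, against 3.49% and 4.69% of all probes. Past a fold of 1.5 with an adjusted p of 0.5, 1 was lower, against 0.811% of all probes. Of the 9, 3 were not well above background on every array, among them Sfrp1, which is part of these counts and of the median. With the probes that were, the median was -0.16. The secreted Wnt antagonists Sfrp5 and Sfrp2 differed by -1.39 and -0.29, and Kremen2, a Dickkopf receptor, by -0.40. Sfrp1, another such antagonist, exceeded background clearly on 3 HZ arrays and 1 KO array, so no difference is given. Of the Dickkopf family, Dkk1, Dkk2 and Dkk4 had no tested probe.

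**Figure D1:**
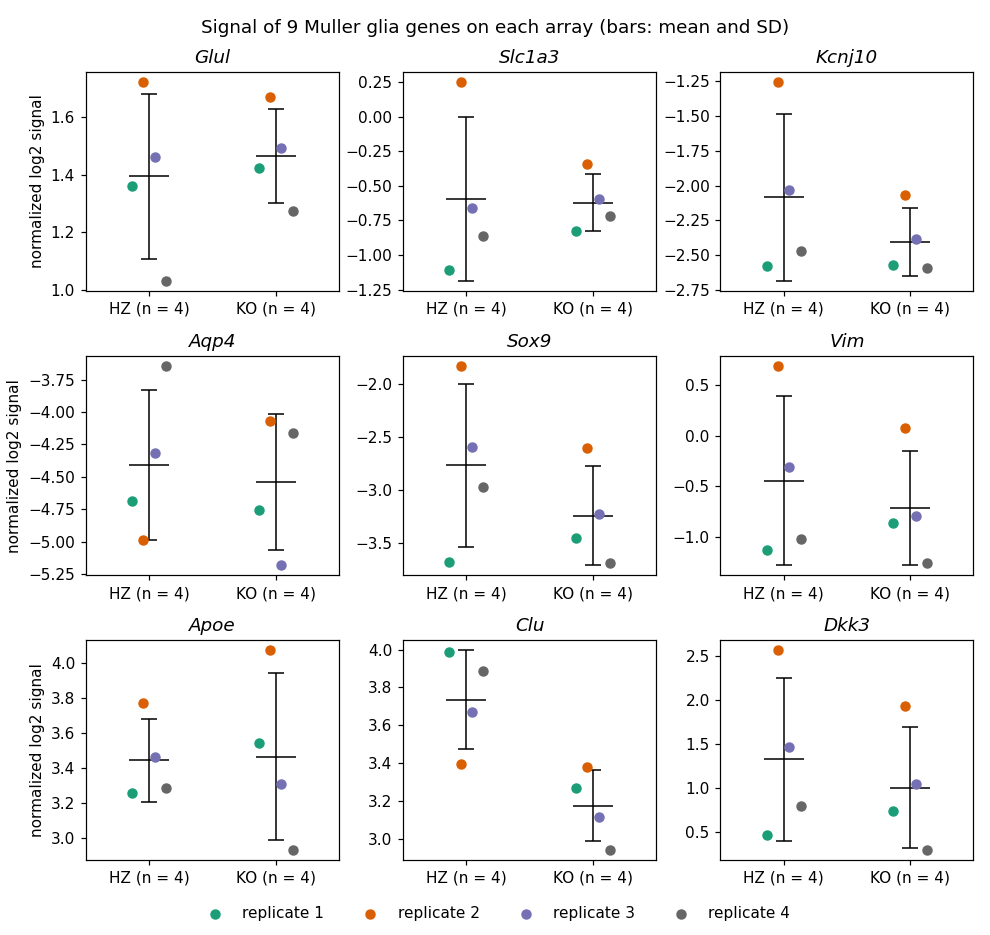
Normalized log2 signal (y axis, each panel on its own scale) of the 9 tested Müller glia genes on the 4 HZ and 4 KO arrays. Each point is an array colored by replicate number, and bars give the mean and SD of a group. Replicate 2 is the highest point of both groups in 7 of the 9 panels, and only for Clu do the groups not overlap.

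Across the 9 genes, 2 were higher and 7 lower in KO, and the median difference was -0.27, against 0.0023 over all tested probes, of which 49.5% were lower. Counted by gene, 43.2% of all tested genes were lower in KO and their median was 0.029. The median of the 9 rested on single arrays, turning to 0.092 without HZ replicate 2, and was -0.086 without KO replicate 4 and -0.48 without HZ replicate 1. The confidence intervals of all except Clu included 0. The interval of Glul ended at -0.29 and 0.43, whereas those of Dkk3 and Sox9 reached down to -1.47 and -1.37, so these do not exclude a large change. With the replicate number as a block the SE fell from 0.50 to 0.17 for Dkk3 and from 0.39 to 0.19 for Sox9, with limma adjusted p-values of 0.490 and 0.429.

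**Figure D2:**
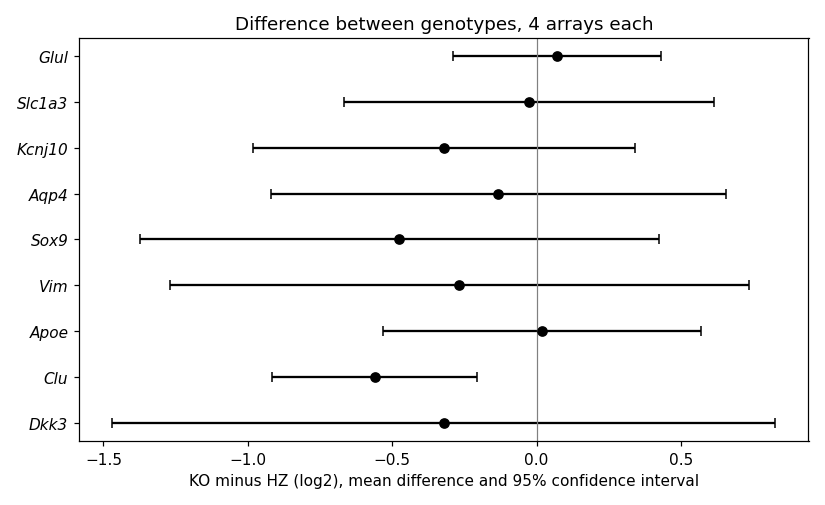
Mean difference between arrays labelled KO and HZ (x axis, log2) for the 9 tested Müller glia genes, with 95% confidence intervals from limma. Clu, at -0.56, is the only gene whose interval does not include 0.

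The F test of the replicate number was added after the values had been seen. In this limma F test of the replicate number with genotype as a term, 7 of the 9 genes reached an unadjusted p under 0.05, against 13.8% of all tested probes. Their p-values were 0.0028 for Dkk3, 0.0045 for Vim, 0.017 for Sox9, 0.027 for Kcnj10, 0.028 for Glul, 0.043 for Slc1a3 and 0.047 for Apoe in this limma fit. After adjustment over the 34281 probes, 0 members and 0 probes passed 0.05. Those genes share the same 8 arrays and are not independent of each other. The excess of replicate 2 over the mean of the other arrays of its group differed between genes. It was 1.65 in HZ and 1.23 in KO for Dkk3, and 1.5 and 1.04 for Vim. Sox9 had 1.24 and 0.85, Slc1a3 1.13 and 0.37, and Kcnj10 1.11 and 0.45. It was smaller for Glul, at 0.44 and 0.27, and for Apoe it was larger in KO, at 0.44 and 0.81. In Clu it was -0.45 in HZ and 0.27 in KO, and in Aqp4 -0.77 and 0.63, which ran in opposite directions.

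Within a replicate number, KO minus HZ differed in the same way for many of the genes. In number 1, 2 of the 9 genes were lower in KO and the median difference was 0.22. In numbers 2, 3 and 4, 7 of the 9 were lower, with medians of -0.60, -0.42 and -0.36. Clu was the 1 member lower in all 4 numbers, against 10.4% of all probes. With the replicate number as a block, the difference of Clu had an unadjusted limma p of 0.020 and an adjusted p of 0.372, and Clu was again the 1 member at an unadjusted p under 0.05, against 11.9% of all probes, 6.06% lower and 5.83% higher. Past the looser thresholds, the block gave 0 members and 3.39% of all probes, 2.65% lower and 0.738% higher.

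**Figure D3:**
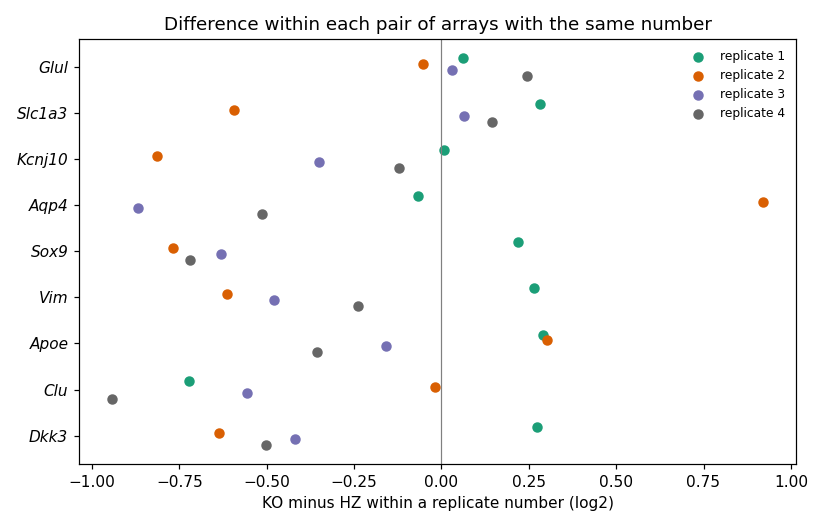
KO minus HZ (x axis, log2) for each of the 9 tested genes within each pair of arrays that share a replicate number, colored by number. Points of number 1 lie above 0 for 7 genes, and points of numbers 2, 3 and 4 lie mostly below 0.

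Other genes known from Müller glia gave a similar picture by replicate number. Of 22 tested, 15 had their highest array at number 2 in both groups and 14 had an unadjusted p under 0.05 in the F test, against 15.5% and 13.8% of all probes. Between genotypes, 7 were higher and 15 lower in KO, with a median of -0.13 that turned to 0.11 without HZ replicate 2. The stricter thresholds were passed by 0 and the looser ones by 3, against 1.04% of all probes. Timp3, an inhibitor of matrix metalloproteinases that RPE cells also make, differed by -1.71 (SE 0.37, limma adjusted p = 0.363). Car14, a membrane carbonic anhydrase of Müller glia and RPE, differed by -1.28 (SE 0.26, limma adjusted p = 0.349). In these 2 genes all KO arrays were below all HZ arrays, against 2.14% of all probes. The highest array of each group was number 1, as for the RPE markers. Gfap is the other gene past the looser thresholds. With the replicate number as a block, 4 genes were lower and 1 higher past them, against 2.65% and 0.738% of all probes.

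Rlbp1 encodes the retinaldehyde binding protein of Müller glia and RPE. Its signal was -0.07, 0.83, -0.01 and -0.39 in HZ and -1.09, -0.03, -0.75 and -1.65 in KO. Replicate 2 was highest in each group, and every KO array was below the HZ array of its number, by 0.74 to 1.26. The difference was -0.97 (SE 0.37, limma adjusted p = 0.580). With the replicate number as a block the limma adjusted p was 0.309. Gpr37, an orphan receptor of glia, differed by -0.64 (SE 0.52) and was also highest on replicate 2.

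Markers of other cell types were read on the same arrays. The mean deviation of the 9 Müller glia genes was -0.30, 0.64, 0.17 and -0.06 in HZ and -0.23, 0.38, -0.20 and -0.40 in KO. Progenitor markers followed a similar course, at -0.39, 1.01, 0.27 and -0.40 in HZ and -0.30, 0.56, -0.17 and -0.59 in KO. So did the Notch genes, which ran from -0.40 on KO replicate 4 to 0.54 on HZ replicate 2, and the bipolar markers, which ran from -0.44 to 0.75 on the same arrays. Between genotypes, 9 of the 10 bipolar markers were lower and 1 higher in KO, with a median of -0.38 that was -0.026 without HZ replicate 2. Of the 10 tested progenitor markers, 9 were highest on number 2 in both groups, and their summed level was 16.1 to 38.8 in HZ and 14.2 to 25.9 in KO. The cell cycle genes Ccnd1, Top2a and Mki67 differed between genotypes by -0.61, -0.41 and -0.32. At an unadjusted p under 0.05 there were 0 of the 10, against 8.17% of all probes. With the replicate number as a block there were 4 lower and 1 higher, against 6.06% and 5.83% of all probes. The median of the progenitor markers, -0.30, turned to 0.010 without HZ replicate 2. The progenitor list shares 1 gene with the bipolar list and 1 with the Notch list.

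Rod markers ran within a narrow range, from -0.18 to 0.25, and differed by a median of -0.13, with 13 of 15 lower in KO. Of them 0 were highest on number 2 in both groups. The part of progenitor or bipolar RNA in the variation of the Müller glia genes was not tested.

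Microglia and astrocytes were read because both share genes with Müller glia. Of 14 tested microglia markers, 13 were higher in KO with a median of 0.75. At an unadjusted p under 0.05 there were 4, all higher, against 4.69% of all probes in that direction. Past either pair of thresholds there were 0. With the replicate number as a block, 1 was higher at an unadjusted p under 0.05, against 5.83% of all probes. The looser thresholds, which allow an adjusted p up to 0.5, were then passed by 9, all higher, against 0.738% of all probes. Cx3cr1, the fractalkine receptor, differed by 0.93, Ctss by 0.92, the complement gene C1qa by 0.91, Aif1 by 0.90 and Tyrobp by 0.89. Their mean deviation was -0.71, -0.47, -0.57 and 0.50 in HZ and 0.75, 0.37, 0.02 and 0.11 in KO. The HZ array apart from its group was replicate 4, not replicate 2, and their summed level was 5.75 to 10.4 in HZ and 6.82 to 11.5 in KO. Of the microglia markers 0 had number 2 highest in both groups. Apoe, which microglia also make, was highest on number 2 as the Müller glia genes were, and the part of microglial RNA in its signal was not tested.

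Of 7 tested astrocyte markers, 2 were higher in KO, S100b and Gfap, and 5 lower, among them the member Aqp4. S100b, a calcium-binding protein of glia, differed by 0.74 (SE 0.25). Neither S100b nor Gfap overlapped between groups, against 4.2% of all probes with KO above HZ without overlap. Aldh1l1 and Fgfr3 differed by -0.53 and -0.25. Gja1, the gap junction protein connexin 43, exceeded background clearly on 4 HZ and 0 KO arrays, with measured means of -4.12 in HZ and -6.00 in KO. It is counted among the 5 lower but entered the test only through its signal in HZ, so no p is given. Taking, on each KO array, the higher of the probe's signal and the lowest signal well above background, KO was 3.06-fold lower. That lowest signal was taken over all probes, so it is not a limit for this probe. Of the defining astrocyte genes, Gjb6 had no tested probe.

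**Figure D4:**
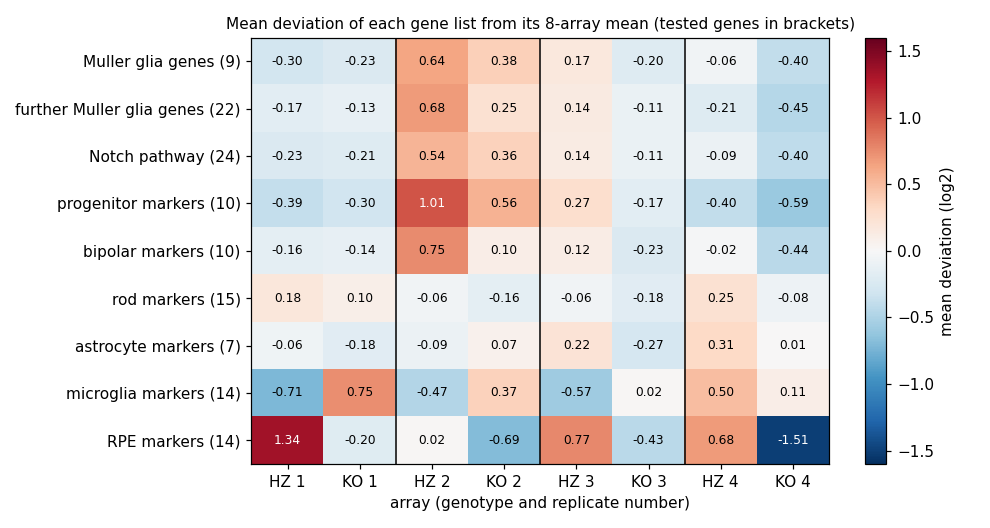
Mean deviation of each gene list from its 8-array mean (color, log2) on each array, ordered by replicate number with HZ and KO side by side. The Müller glia genes, the further Müller glia genes, Notch genes, progenitor markers and bipolar markers have their highest value on HZ replicate 2, whereas the RPE markers are lower in KO within every number.

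The genes whose profile over the 8 arrays was most like the mean profile of the 9 Müller glia genes were sought among 14733 tested genes by root mean square distance on the log2 scale. Itm2a, an integral membrane protein, was nearest at 0.0870, followed by Rnf19b, a ubiquitin ligase, at 0.0876 and Irf1, a transcription factor of interferon responses, at 0.0915. Nova1, a neuronal splicing factor, had 0.0963 and Espn, an actin-bundling protein, 0.0990. These distances are closely spaced and their order is a description of 8 arrays. Of the members themselves, Kcnj10 was nearest to the mean of the others, at 0.185, followed by Slc1a3 at 0.225 and Apoe at 0.228. Clu, at 0.514, and Aqp4, at 0.676, were farthest.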

How the data were processed

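Gene expression of CD73-positive photoreceptor cells of mice at postnatal day 8 was measured on 8 single-color SurePrint G3 arrays, grouped by label into 4 Lpcat1 HZ and 4 Lpcat1 KO. The authors deposited the scanner output of Agilent Feature Extraction 10.7.1.1 (version from the submitters' processing notes), in which each spot has a background-subtracted signal intensity and marks for outliers and for spots clearly over background. A second deposited table held the authors' log2 values after their 75 percentile shift. Compared with the intensities, these were the same values up to a constant per array, with each probe centred on its median over the 8 arrays (100% of 34281 probes, tolerance 1e-04). Their scale and direction were settled by this comparison. The medians of those columns were -0.065, -0.012, -0.027 and 0.20 for HZ and -0.010, 0.061, -0.019 and 0.033 for KO.

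From the log2 intensity of every array its own 75th percentile, taken without control spots, was subtracted. Spots marked as outliers were dropped, and repeated spots were averaged per probe. A probe was tested if well above background on at least 4 arrays with at least 3 values in each group. Genes were named through RefSeq accessions with a GRCm38.p6 annotation, from which names and promoter sequences were taken. It gave 32994 of 56605 probes a gene, and 34281 probes of 14840 named genes and of unnamed transcripts were tested. A gene is represented by its probe with the highest mean. Groups were compared with limma 3.58.1 (lmFit, eBayes; R 4.3.3, data.table at version 1.17.8), two-sided, with Benjamini-Hochberg adjustment over all tested probes. Thresholds were a fold of 1.2 with an adjusted p of 0.05, the stricter pair, and a fold of 1.5 with an adjusted p of 0.5, the looser pair, since the methods give these without tying either to the photoreceptor cells. Scripts were tested on simulated data. Plots were drawn with matplotlib.

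The Müller glia genes, the other lists and the tests were chosen with earlier results of these data known. Named are the 10 members, up to 5 genes of each list with the largest difference, Lpcat1, Nt5e and the 5 genes nearest to the members' mean profile. Some genes that this rule takes in are not reported here. Deviations from group means correlated between arrays of the same replicate number with r of 0.165 to 0.337, above 0.1 in 4 of 4 pairs. Arrays of the same number, which is the slide column, thus varied together. Between different numbers r was -0.339 to 0.119. Centring on group means lowers these r where those of the same number are positive, so the contrast is partly built in. The number of arrays limits the precision. Alternatives were quantile normalization, normexp with an offset of 50 on the median signal of a spot, another percentile, other filters, the authors' values, eBayes with a trend and robust settings, the methods' t-test, the replicate number as a block, the mean of a gene's probes and each array left out. Leaving out both arrays with number 2 and the test of the replicate number were added after seeing the data.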

Additional observations from a re-analysis of the deposited data

Results flagged for a closer look

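In groups of 4 arrays, 5 of 64 sets of values held an array that stood off from its group by Dixon's criterion, where chance gives about 1 in 20 and so 3.2. The genes for apolipoproteins, lipid export and lipoprotein receptors had a mean deviation of -0.064 on HZ replicate 4, against 0.093 to 0.12 on the other HZ arrays. The glial filament genes had 0.47 on KO replicate 2, against -0.061 to 0.0026. The endothelial cell and pericyte markers had 0.41 on HZ replicate 2, against -0.31 to -0.24, and -0.30 on KO replicate 1, against 0.19 to 0.29. Nt5e had a normalized log2 signal of 4.05 on KO replicate 1, against 4.25 to 4.29 on the other KO arrays. None of the 9 tested Müller glia genes had such an array.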

How the results depend on the processing

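Clu kept its direction and stayed at an unadjusted p under 0.05 under all 19 alternatives, with differences of -0.74 to -0.48 and adjusted p-values of 0.150 to 0.872, and the count of members past the stricter thresholds was 0 under all 19. Past the looser thresholds there were 0 members as reported and 1, Clu, with quantile normalization, with normexp, with the percentile over the probes that exceeded background on every array, and without both arrays of number 2. Leaving out single arrays gave 0 to 1, the 1 without HZ replicate 2. The median difference of the members was -0.16 without both arrays of number 2 and ran from -0.48 to 0.092 with single arrays left out, and it was positive only without HZ replicate 2. Apoe turned to -0.040 with quantile normalization, -0.013 with that percentile and -0.075 without both arrays of number 2, and ran from -0.18 to 0.20 with single arrays left out. Slc1a3 turned to 0.16 without both arrays of number 2 and ran from -0.20 to 0.26. Lpcat1 turned to 0.0049 with normexp and 0.022 without both arrays of number 2, and ran from -0.097 to 0.022. The ranges with single arrays left out were -0.33 to 0.12 for Aqp4, -0.63 to 0.092 for Dkk3, -0.050 to 0.18 for Glul and -0.53 to 0.11 for Vim. The cause of these changes was not tested. Sox9 and Kcnj10 kept their direction under all 19 but moved to -0.16 and -0.043 without HZ replicate 2, with ranges down to -0.78 and -0.49.

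With the replicate number as a block, Clu remained at -0.56 (limma adjusted p = 0.372), no member changed its side of a threshold, and over all probes 1162 passed the looser thresholds in place of 356. That count was 41 without a filter on dim probes, 201 with the mean of a gene's probes, 1730 without HZ replicate 2 and 1043 without both arrays of number 2. It was 1 without HZ replicate 1, 195 without KO replicate 1, 10 without KO replicate 2, and 0 when HZ replicate 3 or either of KO replicates 3 and 4 was left out. Probes past the stricter thresholds numbered 0 as reported, with 2802 at an unadjusted p under 0.05, and 2 with quantile normalization, 17 with normexp, 2 by the methods' t-test and 3 with trend and robust eBayes. In the F test of the replicate number, 0 members and 0 probes passed an adjusted p of 0.05 also with quantile normalization, normexp and the authors' values. Signal over background limits Hes1, whose probe was not well above background on any array.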
